A study of Mus musculus with 9 samples.

Results

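Oligodendrocyte lineage RNA was followed through 9 marker genes in ribosome-bound RNA precipitated from dorsal striatum with Cre under the D1 dopamine receptor gene. The genes were given as a list of symbols, and all 9 matched an identifier among the 47729 in the deposited tables. Of the 9 genes, 6 mark myelin and mature oligodendrocytes (Mbp, Mobp, Mog, Cldn11, Cnp and Aspa) and 3 mark precursors (Pdgfra, Cspg4 and Gpr17). All mice were C57BL/6 at postnatal day 28 and carried D1-Cre and RiboTag, a hemagglutinin-tagged ribosomal protein that Cre switches on, so that polyribosomes of Cre-positive cells can be pulled down. The stereotypy group (D1-Cre-flTrkB-RT, 3 libraries) also carried floxed TrkB, the receptor for brain-derived neurotrophic factor, and showed spontaneous repetitive behavior. The no stereotypy group had the same genotype without that behavior (3 libraries), and the controls (D1-Cre-RT, 3 libraries) had Cre and tag but no floxed allele. The labels name D1 medium spiny neurons, the neurons that send the direct output pathway of the striatum, as the enriched population. They call the libraries biological triplicates and do not say how many animals each holds.

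Oligodendrocytes wrap axons in myelin. Their precursors carry the growth factor receptor encoded by Pdgfra and the surface proteoglycan encoded by Cspg4, pass through a committed stage at which the G protein-coupled receptor Gpr17 peaks, and then switch on myelin genes under the transcription factors Sox10 and Myrf. In the mouse striatum, myelinated fibre bundles from cortex run between the medium spiny neurons, and precursors are spread through the tissue. Oligodendrocytes are not the population the labels name, and no RNA from before the precipitation was analysed here, so neither enrichment nor depletion of these genes by the precipitation was measured. In such libraries, more RNA of a cell type in the precipitate and more RNA per cell cannot be told apart.

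Values are CPM, the reads of a gene scaled to a common total of reads counted per library. The libraries held 27103152 to 40578512 reads, so that a count of 0 would allow up to 0.0739 to 0.111 CPM (3 reads, counting error only). Ntrk2, which encodes TrkB, stood at 39.6 ± 4.85 CPM with stereotypy and 18.9 ± 4.67 CPM without, against 397 ± 84.8 CPM in controls (SD, n = 3 each). Summed D1 neuron markers were 2344 ± 50.7, 1769 ± 195 and 2266 ± 350 CPM with stereotypy, without it and in controls. Summed D2 neuron markers, from the other class of medium spiny neuron, were 331 ± 84.4, 789 ± 234 and 835 ± 526 CPM. Summed cortical excitatory markers were 230 ± 65.5, 873 ± 477 and 525 ± 294 CPM (SD, n = 3 each). Replicate 3 of the no stereotypy group and replicate 3 of the controls stood apart, with cortical sums of 1423 and 848 CPM and D2 sums of 1050 and 1433 CPM, higher than in the other 7 libraries.

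All 9 genes were read in every library. Per kilobase of exon, the mean level over the 9 libraries was 40.9 CPM for Mbp, 20.9 for Cnp, 19.2 for Mobp, 14.4 for Cldn11 and 6.68 for Mog. It was 0.703 CPM per kilobase for Gpr17, 0.419 for Aspa, 0.150 for Pdgfra and 0.111 for Cspg4. Aspa thus stood among the precursor genes in level and not among the myelin genes. Neighbours in this order overlapped in range, with Cnp spanning 13.1 to 33.7 and Mobp 10.6 to 34.0 CPM per kilobase over the libraries. The counts behind the lowest levels were 11 to 77 reads for Cspg4 and 31 to 82 for Pdgfra, while Mbp had 6922 to 17998. Aspa, among the myelin genes, had 23 to 154.

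All 9 passed the filter for testing, at least 1 CPM in at least 3 libraries. Cspg4 reached 1 CPM in 3 libraries with stereotypy, 2 without it and 1 control, and Pdgfra in 3, 3 and 1. Changes were tested with limma on log2(CPM + 1) over 13695 genes, with p-values adjusted by the Benjamini-Hochberg method over all of them and a threshold of 0.05. The pseudocount of 1 shrinks changes of genes near 1 CPM.

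Mbp (ENSMUSG00000041607, chromosome 18), which encodes a major protein of compact myelin, had 456, 346 and 339 CPM with stereotypy and 404, 299 and 444 CPM without, against 189, 311 and 327 CPM in controls. The libraries with stereotypy all lay above the controls, replicate 3 only just, and control replicate 1 was far below the rest. The log2 change was 0.49 with stereotypy (SE 0.21, limma adjusted p = 0.191) and 0.49 without it (SE 0.21, limma adjusted p = 0.202), so neither passed.

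Mobp (ENSMUSG00000032517, chromosome 9, 120149707 to 120181484), another structural protein of myelin, had 233, 128 and 130 CPM with stereotypy and 133, 90.7 and 146 CPM without, against 72.3, 149 and 100.3 CPM in controls. Stereotypy replicate 1 was high and the groups overlapped. Its log2 change was 0.61 with stereotypy (SE 0.29, limma adjusted p = 0.226) and 0.23 without.

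Mog (ENSMUSG00000076439, chromosome 17, 37010743 to 37023398) encodes a protein on the outer face of the myelin sheath. It had 16.3, 14.2 and 9.30 CPM with stereotypy and 11.9, 6.69 and 19.1 CPM without, against 4.16, 6.79 and 14.0 CPM in controls. Replicate 3 was the lowest of its group with stereotypy, and the highest of its group without stereotypy and in controls. Cldn11 (ENSMUSG00000037625, chromosome 3, 31149920 to 31164324), which encodes the claudin of myelin tight junctions, had 27.9, 27.3 and 17.2 CPM with stereotypy and 32.8, 15.9 and 56.2 CPM without, against 9.14, 15.0 and 41.1 CPM in controls. Its libraries spread more widely on the log2(CPM + 1) scale than those of the other 8 genes. In CPM its highest library was 6.15-fold its lowest, below the 8.47-fold of Aspa and the 7.34-fold of Cspg4. The log2 changes of Mog and Cldn11 were 0.72 (SE 0.40) and 0.37 (SE 0.50) with stereotypy and 0.57 (SE 0.40) and 0.75 (SE 0.50) without it, and none passed in limma (adjusted p = 0.300, 0.688, 0.447 and 0.422).

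Cnp (ENSMUSG00000006782, chromosome 11, 100574904 to 100591729), a cyclic nucleotide phosphodiesterase of the oligodendrocyte cytoplasm, had 84.2, 66.8 and 64.3 CPM with stereotypy and 90.1, 59.4 and 123 CPM without, against 47.5, 56.1 and 93.9 CPM in controls. Its order of libraries was the same as that of Cldn11. Its log2 change was 0.17 with stereotypy (limma adjusted p = 0.734) and 0.46 without (0.361). The exons of Cnp share 154 bases with the neighbouring gene Dnajc7, on the opposite strand, which averaged 373 CPM. Since the use of strand in counting is not given in the sources used here, reads there could have been assigned to either gene.

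Aspa (ENSMUSG00000020774, chromosome 11, 73304992 to 73329596) encodes aspartoacylase, the oligodendrocyte enzyme that releases acetate from N-acetylaspartate. It had 5.51, 3.25 and 3.91 CPM with stereotypy and 1.52, 1.01 and 3.28 CPM without, against 1.29, 0.651 and 2.02 CPM in controls. The stereotypy libraries lay above all controls, while 1 library without stereotypy reached into their range. Aspa rose by 1.19 on the log2 scale with stereotypy (SE 0.30, limma adjusted p = 0.0484). It was the 1 myelin gene of 6 to pass there, where 5.1% of all genes tested passed. Without stereotypy the change was 0.31 (SE 0.30, adjusted p = 0.600 in limma). This call did not hold without control library 1 (adjusted p = 0.0841) or 2 (0.114), stereotypy replicate 1 (0.133), 2 (0.106) or 3 (0.110), or no stereotypy replicate 1 (0.0710) or 2 (0.0515), and over all alternatives the adjusted p ran from 0.0137 to 0.133. The log2 change stayed between 0.97 and 1.40 with single libraries left out, while the number of all genes passing, 699 with every library, fell to 124 to 635 in those 7 fits. It was also lost in edgeR's quasi-likelihood test (adjusted p = 0.0742), while DESeq2 called it (0.0137). Over all genes 643 and 1523 of 13695 passed in these tools.

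**Figure D1:**
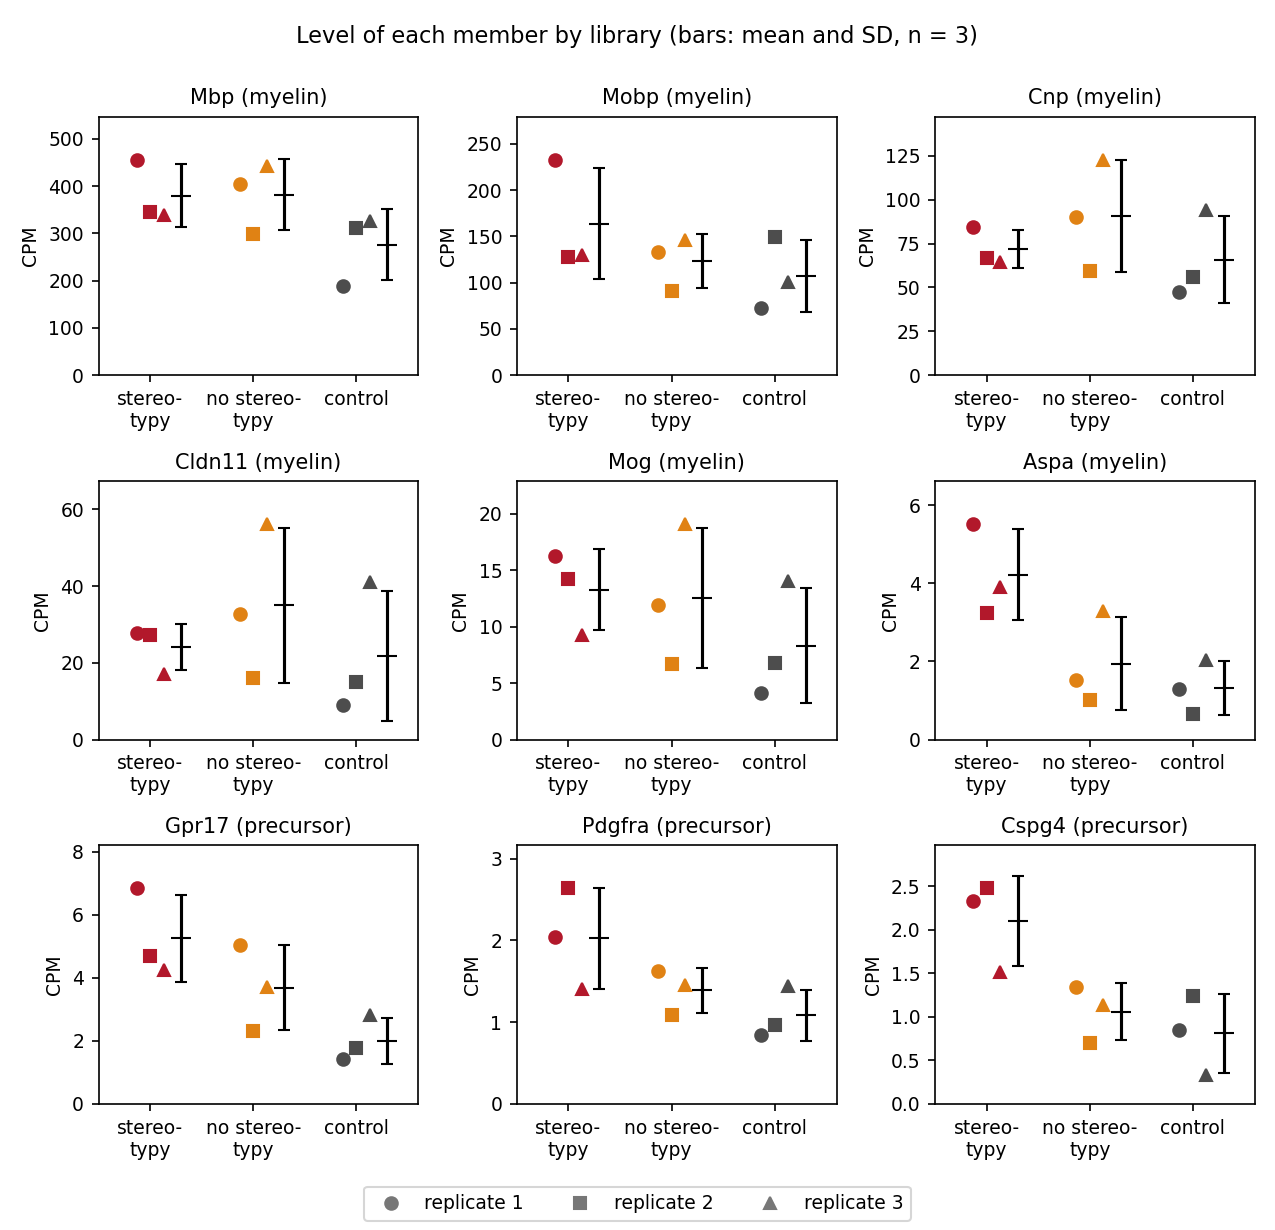
CPM (vertical axes, from 0) of the 9 genes in each library, with groups along the horizontal axes, replicates as symbols, and mean and SD (n = 3) as bars. Aspa, Gpr17, Mbp and Cspg4 are higher in every stereotypy library than in every control, and Cldn11 and Cnp peak in no stereotypy replicate 3.

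Gpr17 (ENSMUSG00000052229, chromosome 18), the receptor of the committed precursor stage, had 6.84, 4.69 and 4.24 CPM with stereotypy and 5.04, 2.32 and 3.72 CPM without, against 1.42, 1.78 and 2.82 CPM in controls. Libraries with stereotypy were all above the controls, and those without it overlapped both. Gpr17 rose by 1.06 on the log2 scale with stereotypy (SE 0.26, limma adjusted p = 0.0402). Without stereotypy the change was 0.63 (SE 0.26, adjusted p = 0.175 in limma). The call with stereotypy did not hold without control library 1 (adjusted p = 0.0899) or 2 (0.0836), or stereotypy replicate 1 (0.115), 2 (0.113) or 3 (0.0741), and the adjusted p ranged from 0.00531 to 0.115 over the alternatives, with edgeR at 0.0521. Its log2 change stayed between 0.89 and 1.25 with single libraries left out, and 124 to 635 genes of all tested passed in those 5 fits. Exons of Gpr17 share 188 bases with Lims2 on the other strand, which averaged 1.56 CPM, so part of its reads could belong to that gene.

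Pdgfra (ENSMUSG00000029231, chromosome 5, 75152292 to 75198215), the receptor that keeps precursors dividing, had 2.04, 2.64 and 1.40 CPM with stereotypy and 1.63, 1.09 and 1.45 CPM without, against 0.848, 0.962 and 1.44 CPM in controls. The groups overlapped, since stereotypy replicate 3 fell just short of control replicate 3. Its log2 change was 0.53 with stereotypy (SE 0.20, limma adjusted p = 0.138) and 0.20 without (SE 0.20, limma adjusted p = 0.600).

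Cspg4 (ENSMUSG00000032911, chromosome 9, 56865033 to 56899870), the proteoglycan on the precursor surface, which pericytes of vessels also carry, had 2.33, 2.47 and 1.51 CPM with stereotypy and 1.34, 0.700 and 1.13 CPM without, against 0.848, 1.24 and 0.337 CPM in controls. Its stereotypy libraries were above every other library. The log2 change with stereotypy was 0.80 (SE 0.23, adjusted p = 0.0691 in limma), and without it 0.21 (SE 0.23, limma adjusted p = 0.650). With array weights Cspg4 passed with stereotypy against control (adjusted p = 0.0467), and Gpr17 did not (0.0599), where 958 of 13695 genes passed. Control replicate 3, the highest control for 5 of the 6 myelin genes, was the lowest library for Cspg4.

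Stereotypy against control gave 2 of the 9 genes higher and 0 lower, Aspa and Gpr17, against 3.58% of all genes tested called higher. All 9 changes were above 0, as were 58.3% over all genes. The median log2 change was 0.55 for the 6 myelin genes and 0.80 for the 3 precursor genes, beside 0.05 over all genes tested. In 4 of the 9 genes, the stereotypy and control libraries did not overlap and stereotypy was higher, which held for 18% of all genes tested. Without stereotypy, 0 of the 9 passed against control in limma, where 6.77% of all genes did. At an unadjusted p under 0.05 there were 2 (Mbp and Gpr17, both higher), beside 12.9% of all genes higher. There edgeR called 0 (6.6% of all genes) and DESeq2 0 (11% of all genes). The median log2 change there was 0.47 for the myelin genes, 0.21 for the precursor genes and 0.03 over all genes, and 0 of the 9 had all libraries without stereotypy above all controls, as 14.9% of all genes did. Both comparisons share the control libraries.

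With the TrkB-deleted groups averaged and set against control, 0 of 9 passed in limma, where 5.72% of all genes did. At an unadjusted p under 0.05 there were 4, all higher, beside 13.1% of all genes. In edgeR 0 passed (5.32% of all genes) and in DESeq2 1 (9.68%). The nearest was Gpr17, with a log2 change of 0.84 (SE 0.22, limma adjusted p = 0.0505). Gpr17 passed without control library 3 (adjusted p = 0.0387) or no stereotypy library 2 (0.0326), and ranged from 0.00968 to 0.173 over the alternatives. The medians were 0.53 for the myelin genes and 0.50 for the precursor genes.

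The 2 TrkB-deleted groups were then set against each other, the direct comparison of deleted mice with and without the behavior. In limma, 0 of the 9 passed for stereotypy against no stereotypy, where 10.2% of all genes did. At an unadjusted p under 0.05 there were 2, both higher, beside 16.9% of all genes, and 0 passed in edgeR (9.75% of all genes) or DESeq2 (17.1%). Aspa came nearest, with a log2 difference of 0.88 (SE 0.30, limma adjusted p = 0.0844). Cspg4 was next at 0.59 (SE 0.23, limma adjusted p = 0.116), and it was the 1 gene of the 9 whose stereotypy libraries all lay above the others, as for 20.8% of all genes. Aspa passed without no stereotypy replicate 3 (adjusted p = 0.0354, log2 difference 1.19), and ranged from 0.00637 to 0.252 over the alternatives. The myelin genes divided, with Mobp, Mog and Aspa above 0 and Mbp, Cnp and Cldn11 below it, for a median of 0.07. The 3 precursor genes had differences of 0.33 to 0.59. The sign of Mbp, at -0.0022 in all libraries, turned with several alternatives, and those of Mog and Cldn11 with the libraries left out.

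**Figure D2:**
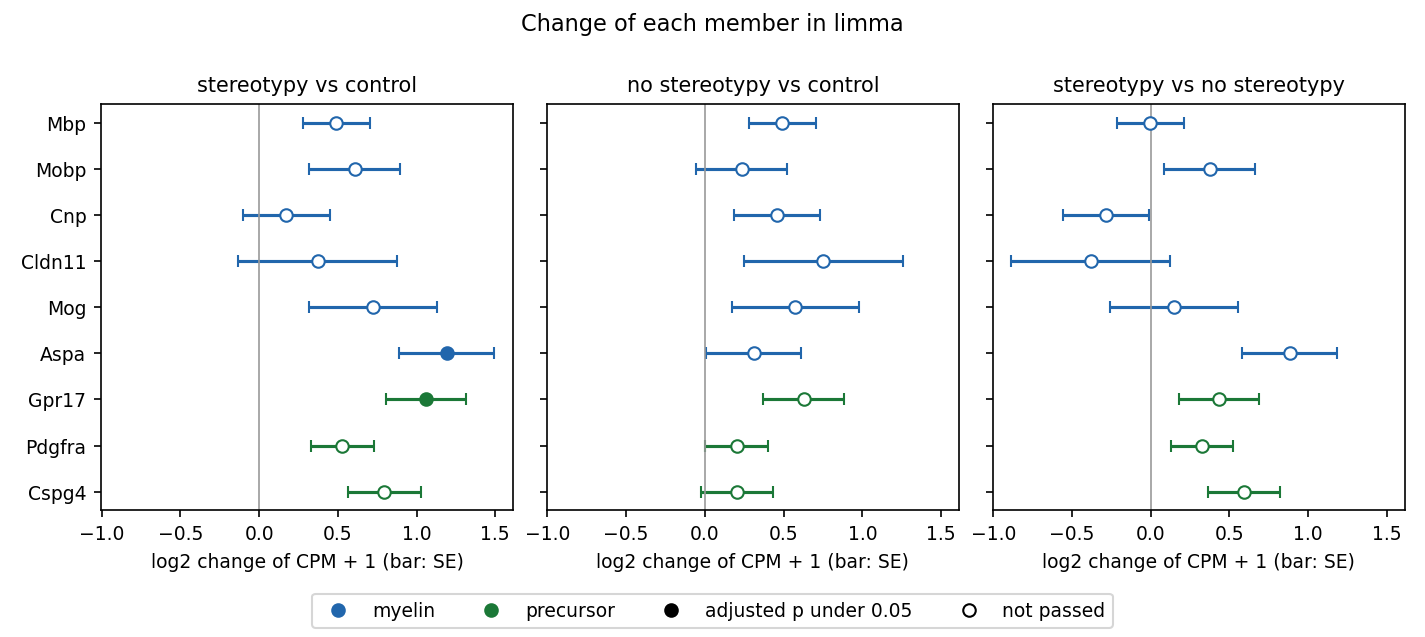
Log2 change on the CPM + 1 scale (horizontal axes) with its SE in limma for each gene in 3 comparisons, myelin genes in blue and precursor genes in green. Aspa and Gpr17, filled, pass in stereotypy against control at 1.19 and 1.06, and no gene passes in the other comparisons.

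Myelin and precursor genes were compared within each library as the mean log2(CPM + 1) of the 6 myelin genes minus that of the 3 precursor genes. This value was 3.69, 3.34 and 3.56 with stereotypy and 3.65, 3.59 and 4.33 without, against 3.36, 3.63 and 4.20 in controls. The libraries at 4.33 and 4.20 were replicate 3 of the no stereotypy group and of the controls, and the other 7 lay within 3.34 to 3.69. The group means were 3.53 ± 0.18 with stereotypy, 3.86 ± 0.41 without and 3.73 ± 0.43 in controls (SD, n = 3 each). The difference between groups was -0.20 for stereotypy against control, 0.12 for no stereotypy against control and -0.33 for stereotypy against no stereotypy. Each is smaller than the spread of single libraries within groups (SD 0.36), with every library and a pseudocount of 1. That SD is larger than the standard error of a difference between means of 3 libraries, so lying below it is not a test. No test was made of a score over chosen genes. That pseudocount shrinks changes of genes near 1 CPM, the precursor genes among them, so the score depends on it. Over all alternatives the first difference ran from -0.42 to 0.050, so it too could exceed that spread. Leaving out 1 library moved the first to between -0.39 (without control replicate 1) and 0.03 (without control replicate 3), and the second to between -0.11 (without no stereotypy replicate 3) and 0.36 (without control replicate 3). The third ran from -0.46 (without no stereotypy replicate 2) to -0.09 (without no stereotypy replicate 3), and was -0.41 without stereotypy replicate 1 and -0.43 without no stereotypy replicate 1, so some of these values exceed that spread. With replicate 3 of the controls and of the no stereotypy group both left out, a choice made after seeing the data, the 3 differences were 0.03, 0.12 and -0.09.

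The precursor mean by itself was 1.94 ± 0.24 with stereotypy, 1.49 ± 0.28 without and 1.15 ± 0.11 in controls. The myelin mean was 5.47 ± 0.30, 5.35 ± 0.54 and 4.88 ± 0.52 in the same order (SD, n = 3 each, log2 scale). Every stereotypy library exceeded every control in the precursor mean, while in the myelin mean control replicate 3, at 5.41, exceeded stereotypy replicates 2 and 3. Over the libraries, Cldn11, Cnp and Mog were highest in no stereotypy replicate 3, Mbp, Mobp, Aspa and Gpr17 in stereotypy replicate 1, and Pdgfra and Cspg4 in stereotypy replicate 2. Control replicate 1 was the lowest library for 5 of the 6 myelin genes, and for Gpr17 and Pdgfra.

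**Figure D3:**
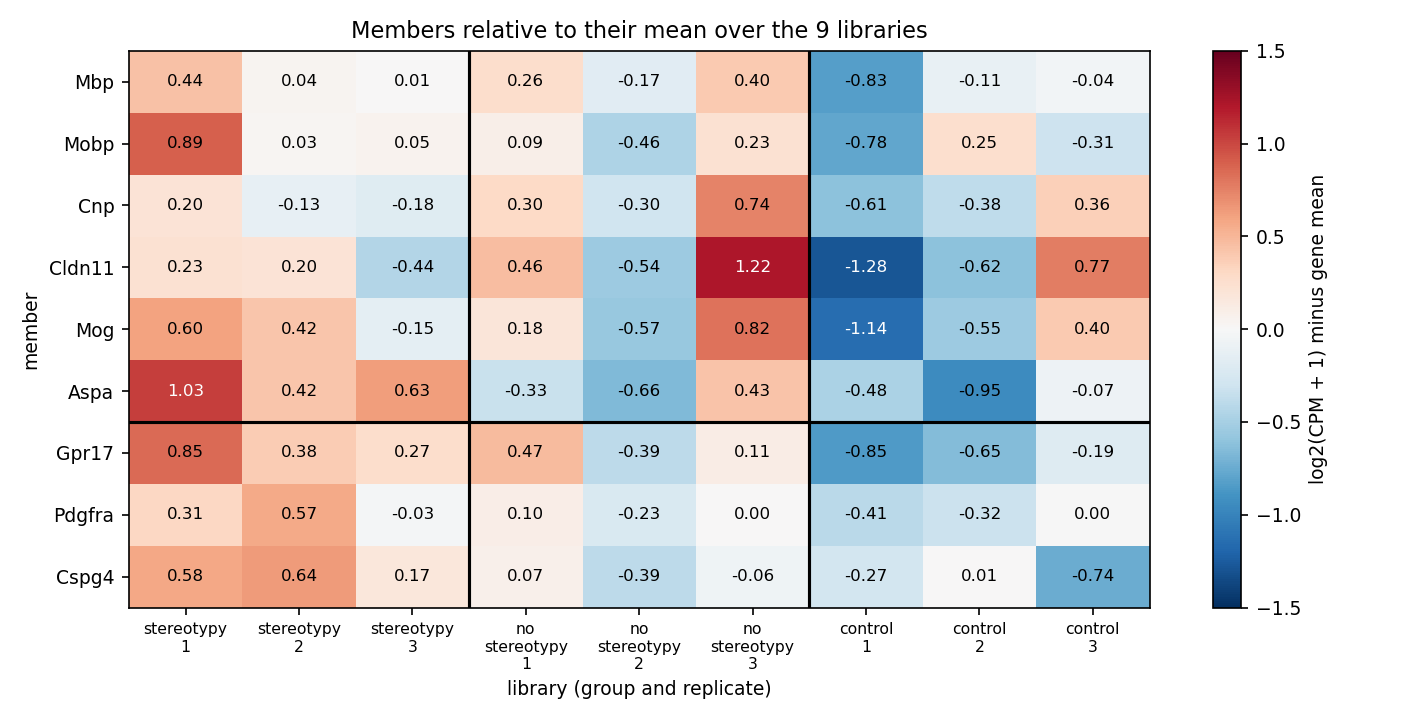
Log2(CPM + 1) of each gene (rows) minus its mean over the 9 libraries (columns), red above and blue below the mean, with a line between myelin and precursor genes. Cldn11 runs from -1.28 in control replicate 1 to 1.22 in no stereotypy replicate 3, and Mbp, Mobp, Aspa and the precursor genes have their highest values among the stereotypy libraries.

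Other genes of the lineage came from lists chosen with earlier results known. Of 33 tested genes of mature oligodendrocytes, 1 (Gjc3) rose with stereotypy against control, a share near the 3.58% of all genes, and 0 fell. Their median log2 change was 0.41. Gjc3, a connexin of glial gap junctions, had 18.7, 13.5 and 12.5 CPM with stereotypy and 6.59, 4.20 and 8.58 CPM without, against 6.49, 4.16 and 6.29 CPM in controls. It separated stereotypy from both other groups, as Cspg4 did. The change was 1.26 against control (SE 0.24, limma adjusted p = 0.0188) and 1.12 against no stereotypy (SE 0.24, limma adjusted p = 0.0250). The first call was lost without stereotypy replicate 1 (0.0645) or 2 (0.0680). The second was lost without stereotypy replicate 1 (0.0614), 2 (0.0695) or 3 (0.0837) or no stereotypy replicate 1 (0.0776) or 2 (0.0763), with the log2 difference between 0.88 and 1.32. For stereotypy against no stereotypy, the number of all genes passing, 1398 with every library, was 1 without stereotypy replicate 2, 0 without stereotypy replicate 3, and 0 without replicate 1 or replicate 2 of the no stereotypy group, so a call lost in these 4 fits says nothing particular to a gene.

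Without stereotypy against control, 1 of the 33 rose (Cryab) and 0 fell, beside 3.76% and 3.01% of all genes, with a median of 0.51. Cryab, a small heat shock protein of oligodendrocytes and other cells, had 13.4, 11.1 and 7.75 CPM with stereotypy and 29.4, 32.5 and 57.4 CPM without, against 6.62, 6.65 and 14.5 CPM in controls. It was higher in every library without stereotypy than in any other library. Its log2 change was 2.01 against control (SE 0.32, limma adjusted p = 0.00536), a call kept in all 21 alternatives. For stereotypy against no stereotypy it was -1.76 (SE 0.32, limma adjusted p = 0.0206), lost without stereotypy replicate 2 (0.0618) or 3 (0.0825) or no stereotypy replicate 1 (0.0610) or 2 (0.0643), the same 4 fits, where the difference stayed between -1.94 and -1.57. For that comparison 1 of the 33 was higher (Gjc3) and 1 lower (Cryab), beside 6.61% and 3.6% of all genes, with a median of -0.09. Of the 33, 25 had their highest level in no stereotypy replicate 3, as had 14.2% of all genes tested. Control replicate 1 was the lowest library for 45.5% of them and control replicate 2 for 42.4%, against 12% and 18.7% of all genes.

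Among 11 tested genes of the further precursor list, 2 rose with stereotypy against control and 0 fell, beside 3.58% and 1.53% of all genes, with a median of 0.14. Ptprz1, a receptor phosphatase that astrocytes also make, had 15.7, 23.7 and 26.7 CPM with stereotypy and 12.1, 11.8 and 13.6 CPM without, against 10.9, 8.80 and 8.06 CPM in controls. The 3 groups did not overlap. Ptprz1 rose by 1.14 against control (SE 0.19, limma adjusted p = 0.00943), lost without stereotypy replicate 2 (0.0562). It was higher than without stereotypy by 0.74 (SE 0.19, limma adjusted p = 0.0351), lost without stereotypy replicate 2 (0.108) or 3 (0.131) or no stereotypy replicate 1 (0.106) or 2 (0.104), again those 4 fits, with the difference between 0.59 and 0.72. Matn4, a matrix protein, had 3.33, 2.09 and 1.48 CPM with stereotypy and 1.40, 0.868 and 0.567 CPM without, against 0.602, 0.651 and 0.675 CPM in controls. It met the filter only through the stereotypy libraries, the group in which it is high, so the filter favoured a rise there. Its change with stereotypy was 0.97 (SE 0.23, limma adjusted p = 0.0379). This call was lost without control replicate 1 (0.0750), 2 (0.0732) or 3 (0.0745), stereotypy replicate 1 (0.102) or 2 (0.115), or no stereotypy replicate 2 (0.0592).

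Vcan, a chondroitin sulfate proteoglycan of the matrix, had 6.30, 5.66 and 6.31 CPM with stereotypy and 3.80, 2.18 and 2.93 CPM without, against 4.95, 4.75 and 5.43 CPM in controls. Libraries without stereotypy lay below both other groups. The log2 change without stereotypy was -0.62 against control (SE 0.17, limma adjusted p = 0.0498), a call lost whichever single library was left out (0.0509 to 0.172). With stereotypy it was higher than without by 0.85 (SE 0.17, limma adjusted p = 0.0225), lost without stereotypy replicate 2 (0.0643) or 3 (0.0868) or no stereotypy replicate 1 (0.0610) or 2 (0.0698), those same fits, with the difference at 0.71 or more. For stereotypy against no stereotypy 2 of the 11 were higher (Vcan and Ptprz1) and 0 lower, beside 6.61% and 3.6% of all genes, with a median of 0.19, and against control without stereotypy 0 were higher and Vcan lower. The list is not specific to precursors, since its most abundant gene, Cacng4, an auxiliary subunit of AMPA receptors that neurons make, had means of 239 ± 16.7 CPM with stereotypy, 222 ± 23.7 CPM without and 277 ± 28.6 CPM in controls (SD, n = 3 each).

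Of 4 tested genes of differentiating cells, 0 passed in any comparison in limma. Their median with stereotypy against control was 0.71, where 3 had an unadjusted p under 0.05 (3288 of 13695 over all genes). There edgeR called 0 (643 of 13695) and DESeq2 1 (1523 of 13695). In the other 3 comparisons, 0 (without stereotypy), 2 (both groups) and 1 (stereotypy against no stereotypy) had an unadjusted p under 0.05, with 0 in edgeR and DESeq2. Over all genes, 3079, 2794 and 4089 of 13695 had such a p in the same order. The highest library of these genes was stereotypy replicate 1 in 4 of 4, as for 12.9% of all genes tested. The most abundant, Bcas1, an early myelination gene, had 24.0, 12.4 and 17.1 CPM with stereotypy and 10.5, 7.45 and 15.1 CPM without, against 10.1, 6.05 and 9.35 CPM in controls, and its log2 change with stereotypy was 0.97 (SE 0.28, limma adjusted p = 0.0684). Of 8 tested transcription factors of the lineage 0 passed in any comparison in limma, with medians of 0.49 with stereotypy and 0.42 without, each against control. At an unadjusted p under 0.05 there were 2 with stereotypy, 2 without and 3 for both groups, each against control, beside 3288, 3079 and 2794 of 13695 over all genes, and 0 for stereotypy against no stereotypy. In edgeR 0 passed in each, and DESeq2 called 1 for stereotypy against control, beside 1523 of 13695 over all genes. Sox10, which drives myelin genes and is named here with its values already seen, was at 4.73 ± 0.868 CPM with stereotypy, 4.83 ± 1.63 CPM without and 2.61 ± 1.28 CPM in controls (SD, n = 3 each). Sox8, its relative and the most abundant of the list, which astrocytes also express, was at 54.5 ± 7.75, 44.9 ± 4.87 and 51.1 ± 12.1 CPM in the same order (SD, n = 3 each).

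Other glia and vessels were read through their own marker lists. Of 12 astrocyte markers 7 rose with stereotypy against control and 0 fell, beside 3.58% and 1.53% of all genes, and their sum was 662 ± 12.7 CPM with stereotypy, 499.9 ± 59.3 CPM without and 510.4 ± 53.5 CPM in controls (SD, n = 3 each). The stereotypy libraries, at 649 to 674 CPM, exceeded all others, which spanned 454 to 567 CPM. Without stereotypy against control, 1 of the 12 rose and 0 fell, beside 3.76% and 3.01% of all genes. There 9 of the 12 changes were above 0, beside 7491 of 13695 over all genes. Their median was 0.30, which the sums do not show. Most of each sum came from 2 genes, Slc4a4 and Slc1a2. Slc4a4, 1 of the 7, was at 394 ± 31.8 CPM with stereotypy, 253 ± 23.1 CPM without and 275 ± 22.7 CPM in controls. Slc1a2, named here with its values already seen, was at 179 ± 15.9, 176 ± 77.9 and 187 ± 70.1 CPM in the same order (SD, n = 3 each). Its log2 change with stereotypy against control was 0.00019. Of 10 microglia markers 1 rose and 0 fell, and they summed to 42.4 ± 4.94, 25.5 ± 3.80 and 24.3 ± 9.17 CPM in the same order (SD, n = 3 each). Of 10 tested vascular markers 2 rose and 1 fell, with a median log2 change of 1.04. At an unadjusted p under 0.05 there were 9, the 1 that fell among them, beside 3288 of 13695 over all genes. DESeq2 called 6, beside 1523 of 13695. They summed to 55.1, 108 and 56.3 CPM with stereotypy and 40.0, 25.9 and 37.4 CPM without, against 57.5, 35.1 and 57.5 CPM in controls. The 2 markers that rose were Slco1a4 (log2 change 1.43, SE 0.33, limma adjusted p = 0.0365) and Pdgfrb (0.79, SE 0.19, limma adjusted p = 0.0416). Neither passed in edgeR (adjusted p = 0.0789 and 0.0642). The marker that fell, Tagln, made up 2.22, 2.02 and 1.22 CPM of these sums with stereotypy and 1.42, 1.48 and 1.70 CPM without, against 13.7, 9.59 and 28.3 CPM in controls. Acta2, listed with it but below the filter, averaged 0.153 CPM over the 9 libraries. The source of the Tagln reads was not tested. No defining marker of these 3 lists was at 0 in every library. Their part in the levels of Aspa, Gpr17 and the other precursor genes was not tested. Cortical excitatory markers were highest in the same 2 libraries as the myelin minus precursor value, and their part in it was not tested either.

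**Figure D4:**
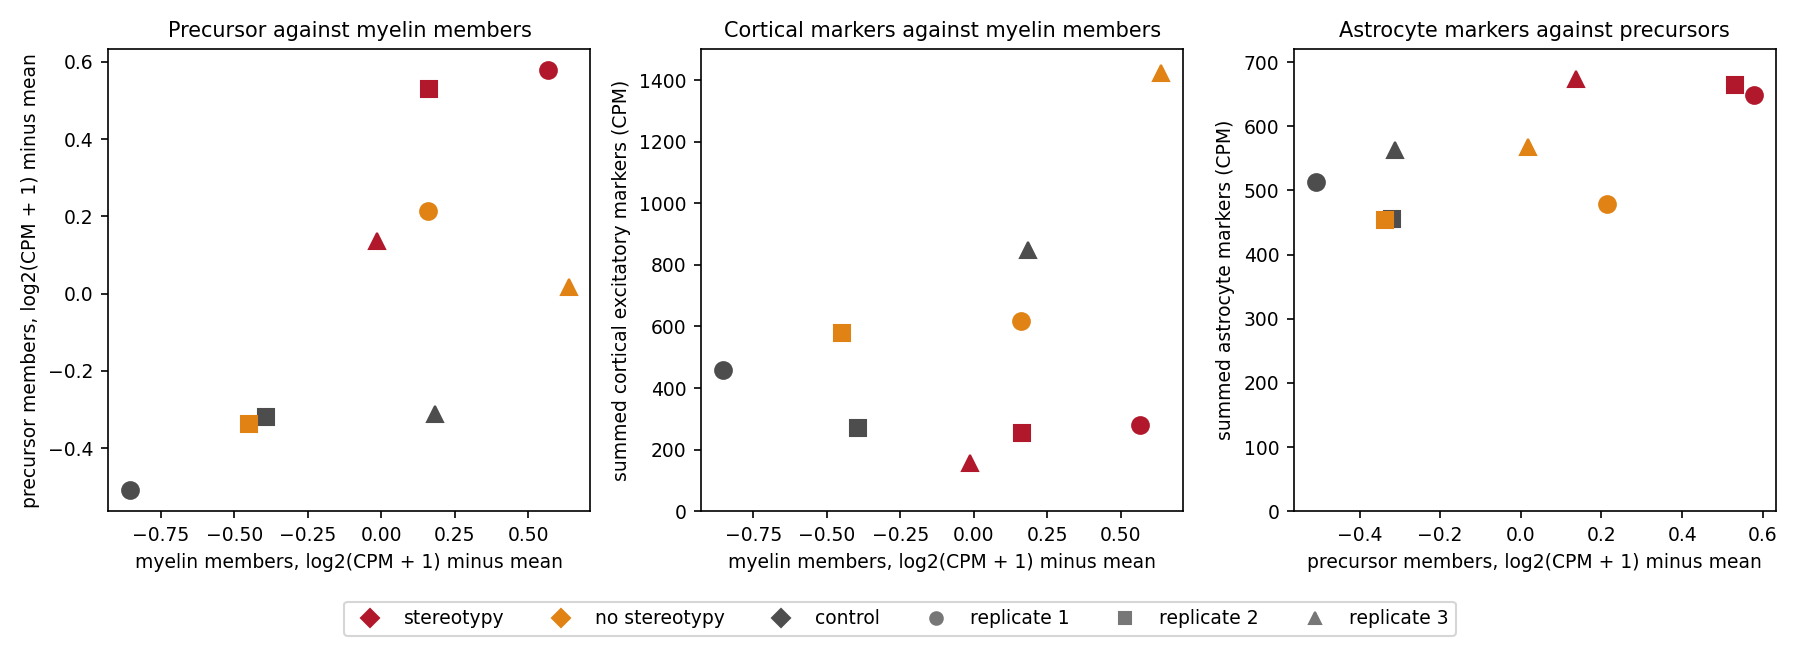
Each point is a library, with color for group and symbol for replicate. Vertical against horizontal axes show, on the left, the precursor mean against the myelin mean (log2(CPM + 1) minus the mean of 9 libraries), in the middle summed cortical excitatory markers (CPM) against the myelin mean, and on the right summed astrocyte markers (CPM) against the precursor mean. On the myelin axis replicate 3 of the no stereotypy group is at 0.64 and replicate 3 of the controls at 0.18, with the highest cortical sums, while stereotypy replicate 1 is at 0.57 with 281 CPM. The 3 stereotypy libraries have the highest astrocyte sums, 649 to 674 CPM, most of which is Slc4a4 and Slc1a2.

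The genes most like the mean profile of the 6 myelin genes over the 9 libraries were Tspan2, Myrf, Gltp, Csrp1 and Olig1. Likeness was the root mean square difference of log2(CPM + 1) after centring each gene, over 9678 protein-coding genes with a mean of at least 5 CPM. It was 0.14 for Tspan2, a tetraspanin of oligodendrocytes, 0.16 for the transcription factor Myrf and 0.18 for Gltp, a glycolipid transfer protein. For comparison, the median over all candidates was 0.48 and the spread of the profile itself 0.46. Tspan2 had 35.1, 31.8 and 20.7 CPM with stereotypy and 21.9, 14.9 and 33.0 CPM without, against 11.7, 15.7 and 27.1 CPM in controls. As in Mog and Cldn11, its replicate 3 was the highest without stereotypy and in controls and the lowest with stereotypy. For the 3 precursor genes the nearest were Hepacam (0.16), a glial adhesion protein, Cers2 (0.17), a ceramide synthase, Elovl5 (0.17), a fatty acid elongase, Bcan (0.18), the matrix proteoglycan brevican, and Kcnj10 (0.18), a potassium channel of glia. The median there was 0.40 and the spread of the profile 0.37. Hepacam had 7.48, 7.07 and 5.72 CPM with stereotypy and 4.73, 3.87 and 6.06 CPM without, against 3.78, 4.58 and 4.17 CPM in controls.

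Promoter windows from RefSeq (GRCm38.p6), from 250 bases before to 50 after the start of transcription, matched 7 of the 9 genes. They are shown for Mobp, with the most SOX core matches, for Aspa, the myelin gene that passed with stereotypy, and for Cspg4, a precursor gene. Capitals mark the SOX core ACAANG, the kind of element that Sox10 binds, on either strand. The windows are chr9:120149492-120149791 (plus strand) for Mobp, chr11:73324588-73324887 (minus strand) for Aspa and chr9:56864854-56865153 (plus strand) for Cspg4, each written 5′ to 3′ on the strand of its gene.
Mobp: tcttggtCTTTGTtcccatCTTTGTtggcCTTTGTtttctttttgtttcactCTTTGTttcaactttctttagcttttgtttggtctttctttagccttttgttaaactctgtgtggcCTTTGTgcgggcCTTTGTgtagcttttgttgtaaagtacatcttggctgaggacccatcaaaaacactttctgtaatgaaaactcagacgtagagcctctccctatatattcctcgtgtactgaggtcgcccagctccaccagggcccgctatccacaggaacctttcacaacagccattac
Aspa: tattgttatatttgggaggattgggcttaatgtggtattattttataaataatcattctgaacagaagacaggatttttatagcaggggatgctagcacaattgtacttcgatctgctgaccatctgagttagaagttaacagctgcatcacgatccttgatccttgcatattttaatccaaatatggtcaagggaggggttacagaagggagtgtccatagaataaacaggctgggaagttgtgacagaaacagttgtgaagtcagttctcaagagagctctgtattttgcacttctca
Cspg4: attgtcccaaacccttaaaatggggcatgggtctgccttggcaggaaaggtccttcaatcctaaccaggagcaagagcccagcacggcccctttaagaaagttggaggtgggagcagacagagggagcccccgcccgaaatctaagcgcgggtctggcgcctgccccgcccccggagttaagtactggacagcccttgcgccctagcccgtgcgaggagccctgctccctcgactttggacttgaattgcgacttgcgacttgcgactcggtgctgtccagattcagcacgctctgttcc
The Mobp window held 6 matches, all on the strand opposite to the gene, and those of Aspa and Cspg4 held 0. In all, 4 of the 7 windows held the core, beside 41.2% of 32851 RefSeq windows of 300 bases. The E-box CANNTG, which overlaps CAGCTG, was in 3 of 7 windows and in 72.3% of all windows, and CAGCTG itself in 1 of 7 (Aspa) and 16.3%. The letters TATAAA were in 1 of 7 (Aspa) and 13.6%, and GGGCGG in 3 of 7 and 35.7%, both strands searched for each. A match is a description of letters and not a bound site.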

How the data were processed

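RNA from hemagglutinin precipitates of dorsal striatum polyribosomes was made into libraries with the NEBNext Ultra kit, per the labels' protocols. The authors deposited 1 table of CPM per library. Reads were aligned with TopHat to GRCm38, per the submitters' processing notes; the sources used here do not name the counter, the annotation or the strand setting. Of the values above 0 in each library, 100% were whole reads within 0.1 reads, so reads were recovered. Symbols, positions and exon lengths came from GENCODE M21 on GRCm38, which matched 47310 of 47729 identifiers (99.1%).

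Tests covered the 13695 genes that reached 1 CPM in 3 libraries or more, on log2(CPM + 1) in 1 limma fit of all 9 libraries (limma 3.58.1, R 4.3.3; variance trend, 3 group means, 6 residual degrees of freedom). All tests were two-sided. Alternatives were edgeR 4.0.16 and DESeq2 1.42.0 on recovered reads, fits to the 6 libraries compared, each library left out in turn, a replicate block, array weights, quantile normalization, rescaling by median ratios, all genes without a filter, only genes averaging 5 CPM or more, and pseudocounts of 0.25 and 4. Leaving out replicate 3 of controls and of the no stereotypy group was added after seeing the data.

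The 9 genes and all lists were chosen with earlier results of these data known. The naming rule took the 9 genes, Ntrk2, of each other list the most abundant gene and up to 2 per direction past the threshold in each comparison of 2 groups, and the 5 genes most like each profile; the text names a part of these, and 1 gene is not reported here. P-values measure the spread between these libraries. Replicates of a group differed by more than counting noise.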

Additional observations from a re-analysis of the deposited data

Results flagged for a closer look

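The search covered the 9 genes, the further lineage lists (33, 4, 11 and 8 genes tested) and Ntrk2. Of these, 5 differed between the TrkB-deleted groups by the direct test of stereotypy against no stereotypy in limma, where 10.2% of all genes tested did. None was among the 9 oligodendrocyte lineage genes. Markers of other cell types were outside this search. By the same test 4 of 12 astrocyte, 3 of 10 vascular and 2 of 10 microglia markers were higher, beside 6.61% of all genes. So were 4 of 9 medium spiny neuron and 2 of 8 D1 neuron markers, and 0 of these 5 lists' markers were lower. Of 6 cortical markers 2 were lower, beside 3.6% of all genes, and 0 of 5 D2 neuron and 0 of 8 interneuron markers passed. The log2 difference was 1.12 for Gjc3 (adjusted p = 0.0250), 0.854 for Vcan (adjusted p = 0.0225) and 0.741 for Ptprz1 (adjusted p = 0.0351), each higher in 3 of 3 stereotypy libraries than in any library without. It was -1.76 for Cryab (adjusted p = 0.0206), lower in 3 of 3 stereotypy libraries than in any library without. For Ntrk2, the deleted gene, it was 1.05 (adjusted p = 0.0206). All 5 calls were lost without stereotypy replicate 2 or 3, or no stereotypy replicate 1 or 2, fits in which 1, 0, 0 and 0 of all genes passed, while no difference changed sign (Ntrk2 0.86 to 1.21, Cryab -1.94 to -1.57). Summed astrocyte markers (662 against 499.9 CPM, most of it Slc4a4 and Slc1a2) and cortical markers (230 against 873 CPM) also differed between stereotypy and no stereotypy libraries. Their part in the differences of the 5 genes was not tested.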

How the results depend on the processing

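For stereotypy against control, 2 of the 9 genes passed. The number was 1 with a pseudocount of 0.25, rescaling or a fit to the 6 libraries compared. Over all genes 686, 695 and 326 passed there, against 699 in the main fit. It was 0 without the filter, with quantile normalization or with edgeR, and 0 to 2 when single libraries were left out. With a mean of at least 5 CPM, Aspa and Gpr17 (means of 2.49 and 3.65 CPM) were not tested, so the 0 there is not a lost call. DESeq2 called both (adjusted p = 0.0137 and 0.00531), where 1523 of 13695 genes passed. The number was also 2 with array weights, where Cspg4 passed and Gpr17 did not. For both TrkB-deleted groups against control it was 1, in place of 0, with a pseudocount of 0.25, with DESeq2 and without replicate 3 of controls and of the no stereotypy group. Over all genes 789, 1326 and 695 passed there, against 784 in the main fit. It was 0 to 1 with single libraries left out. For stereotypy against no stereotypy it was 2 with array weights, 1 with the replicate block and 1 without that pair of libraries. Over all genes 4698 of 13695, 1788 of 13695 and 1702 of 13545 passed there, against 1398 of 13695 in the main fit. With single libraries left out it was 0 to 1. The precursor median for stereotypy against control (0.80) was 1.23 and 0.34 with pseudocounts of 0.25 and 4, 1.31 with edgeR and 1.31 with DESeq2. For both groups against control (0.50) it was 0.80, 0.21, 0.82 and 0.83, a scale that follows from the pseudocount for genes near 1 CPM. Myelin medians and the myelin minus precursor differences moved by less than the spread within groups in every alternative that gave them, but some turned sign. The myelin minus precursor difference ran from -0.42 to 0.050 for stereotypy against control and from -0.11 to 0.36 without stereotypy. With single libraries left out, the myelin median ran from 0.30 (without control replicate 1) to 0.79 (without control replicate 3) for stereotypy against control. Without stereotypy it ran from 0.22 (without no stereotypy replicate 3) to 0.69 (without no stereotypy replicate 2). For stereotypy against no stereotypy it ran from -0.19 (without no stereotypy replicate 2) to 0.30 (without no stereotypy replicate 3), and was -0.07 without stereotypy replicate 1.

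The direction of some changes that did not pass turned. For stereotypy against control these were Cnp (-0.026) and Cldn11 (-0.079) without control replicate 1, with ranges up to 0.46 and 0.95 over single libraries left out. Without stereotypy, Mobp was at -0.017 without control replicate 1 (up to 0.50 over single libraries) and Cspg4 at -0.029 without the pair (0.0029 to 0.38 over single libraries). For stereotypy against no stereotypy, Mbp was at 0.0072 with quantile normalization, 0.039 with array weights, 0.11 without the pair and up to 0.11 without single libraries, where it ranged from -0.17. Cldn11 was at 0.039 without no stereotypy replicate 3, and without the pair, and as low as -0.84 over single libraries, and Mog ranged from -0.21 to 0.49. The cause was not tested.

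The 3 groups carry the same replicate numbers. The labels do not say whether equal numbers mark a shared batch, so the main fit did not take them as pairs. Same-numbered libraries correlated at -0.060 to 0.41 over genes, highest between controls and no stereotypy in replicates 2 (0.36) and 3 (0.41). Since 7 of 9 libraries were nearest to their own number, part of their deviation may be shared, which the main fit does not remove. With the replicate block, 917 genes in place of 699 passed for stereotypy against control. For stereotypy against no stereotypy 1788 passed in place of 1398, Aspa among them (log2 difference 0.88, limma adjusted p = 0.0381). The score over chosen genes has no value for array weights or the 6-library fits, and precursor genes and Aspa none with a mean of at least 5 CPM. Depth limits Cspg4 and Pdgfra most, with at most 82 reads in a library.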
